A study of Mus musculus with 40 samples.

Results

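The methylation of the Gtl2-DMR was compared between embryonic day 8.5 (E8.5) and E18.5 in mouse embryos that inherited the deletion of the IG-CGI from the father (IG-CGIΔP). The members were the 16 libraries of this genotype, out of 40 libraries in all, that were of these stages and listed CpGs at the Gtl2-DMR, on chromosome 12 between 109540467 and 109541075 (mm10). They comprised 9 libraries from E8.5 and 7 from E18.5, with 1 library for each embryo. The 7 E18.5 libraries were titled MEG3_DMR. At E8.5, 3 were titled MEG3_DMR and 6 were titled IG_DMR, but all 105 CpG values of those 6 lay in the same window and none lay at the IG-DMR. All 301 values listed in the 16 libraries lay in this window, 160 at E8.5 and 141 at E18.5.

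The Dlk1-Dio3 domain is imprinted. Gtl2, also named Meg3, is a long noncoding RNA gene expressed from the maternal chromosome, while the growth regulator gene Dlk1 is expressed from the paternal one. The intergenic IG-DMR carries methylation from the sperm and acts as the imprinting control region, and the Gtl2-DMR over the Gtl2 promoter gains methylation on the paternal chromosome after fertilisation. The IG-CGI is the CpG island within the IG-DMR.

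All 16 embryos carried the same deletion, made by Cre recombinase under the germ cell promoter Vasa in the germ cells of their parents, and passed on to the embryo. The captured CpGs lie outside the IG-CGI, and the libraries therefore do not check the genotype. The E18.5 embryos bore the names of 2 clones in their titles (5 of clone74 and 2 of clone115), and the E8.5 embryos bore a number of 6, 7 or 8 (2, 4 and 3 embryos), whose meaning the labels do not give. Tail was the labelled tissue at both stages, whereas the study's text names whole embryos at E8.5 and tails at E18.5. Stage can therefore not be told apart from tissue, clone or title number. No wild-type (WT) library of E8.5 was analysed here. Each percentage is over both parental chromosomes, which the values do not separate.

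The annotated start of Meg3 (RefSeq, GRCm38.p6, gene 17263, chr12:109540996-109571729, plus strand) falls within the captured stretch. Positions are given below as bases upstream or downstream of it. The promoter window of RefSeq, chr12:109540746-109541045 on the plus strand, is shown since most of the measured CpGs lie in it, with each CG in capitals.

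Meg3 promoter: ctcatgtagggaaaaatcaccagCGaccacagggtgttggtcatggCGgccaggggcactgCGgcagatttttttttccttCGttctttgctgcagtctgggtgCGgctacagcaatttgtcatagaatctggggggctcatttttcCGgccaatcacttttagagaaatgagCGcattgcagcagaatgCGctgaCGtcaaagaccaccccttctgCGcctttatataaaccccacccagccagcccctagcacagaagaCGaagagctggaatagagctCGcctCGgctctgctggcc

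The 13 CGs of this window were all measured. The median over 32851 such windows of the same length was 7 CGs, and 62.1% of the windows held fewer than Meg3. Among short motifs searched on both strands, TGACGTCA, the palindromic cAMP response element, began 57 bases upstream of the start and contained the CpG at 109540942. This element was found in 588 of the 32851 windows (1.79%). The letters TATAAA began 29 and 25 bases upstream (present in 13.6% of windows), and CCAAT began 100 bases upstream (37.4%), 3 bases after the CpG at 109540893. A match of letters is a description only.

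A total of 30 positions were listed by at least 1 library. Between 9 and 21 CpGs were listed in an E8.5 embryo (17.8 ± 3.56, SD, n = 9) and between 17 and 25 in an E18.5 embryo (20.1 ± 2.73, SD, n = 7). This difference did not pass an exact two-sided permutation test (p = 0.198, adjusted p = 0.446). The 19 CpGs listed in at least 4 libraries of each stage were compared one by one, and 7 of them were listed in all 16 libraries. The remaining 11 positions were listed too rarely for a test, 8 only at E18.5 and 1 only at E8.5. No 2 of the 16 libraries, over 120 pairs, held identical values. Read coverage is not given for any CpG, so the depth behind a percentage is unknown and may differ between CpGs.

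**Figure D1:**
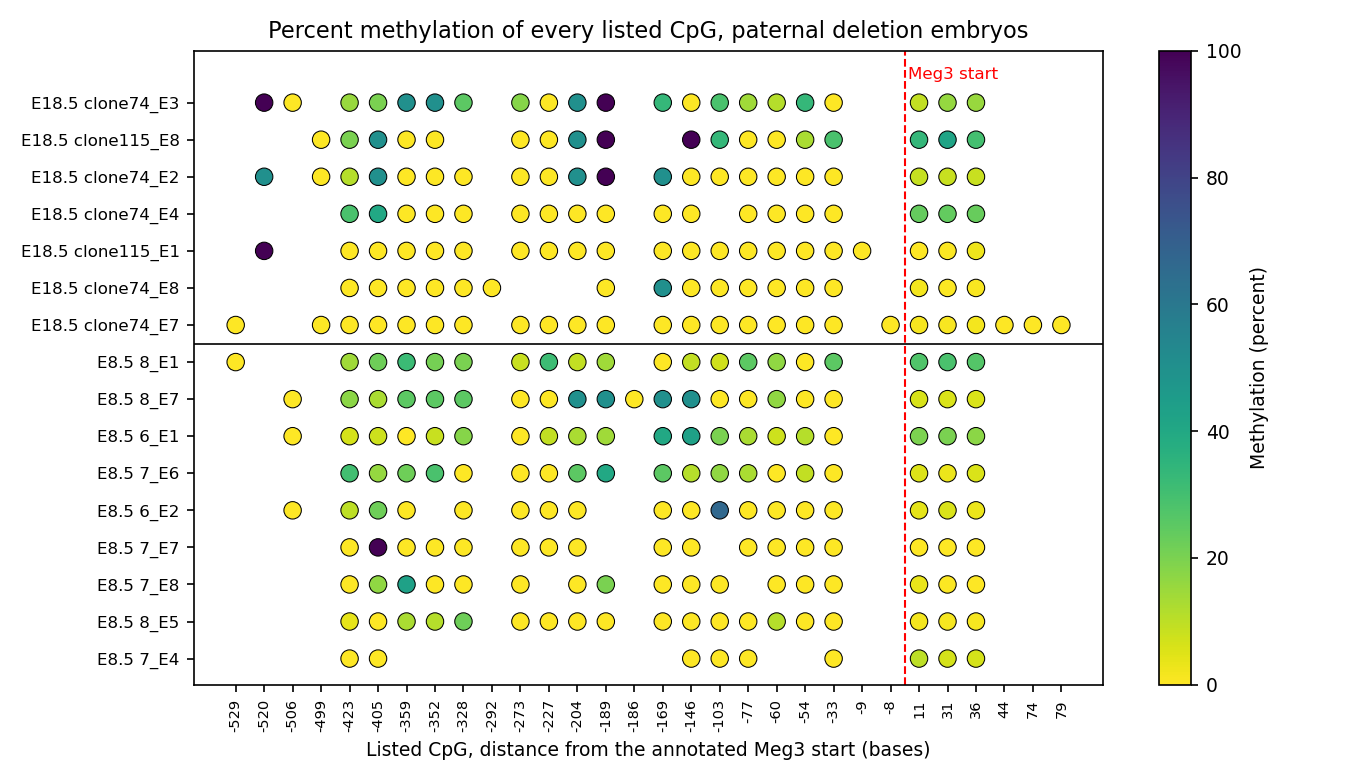
Percent methylation (colour) of every listed CpG in each of the 16 embryos, by distance in bases from the annotated Meg3 start. Embryos are ordered within a stage by their mean level. Dark points, at 100 percent, appear in 4 of 7 E18.5 embryos and in 1 of 9 E8.5 embryos, while the 3 CpGs 11 to 36 bases right of the dashed line take similar colours within each embryo.

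Gtl2-DMR methylation was low at both stages, and the stage means could not be told apart. The level of an embryo, the mean percentage over its listed CpGs, ran at E8.5 from 2.54 in 7_E4 over a median of 6.21 to 16.9 in 8_E1. At E18.5 the level ran from 0.151 in clone74_E7 over a median of 7.75 to 28.1 in clone74_E3. The ranges overlapped along the whole of the E8.5 range, with 1 E18.5 embryo below it and 2 above it. The mean was 9.17 ± 5.67% (SD, n = 9) at E8.5 and 12.5 ± 11.6% (SD, n = 7) at E18.5. The difference was 3.37 percentage points, with a 95% interval of -5.99 to 12.9 by inversion of the exact permutation test (two-sided exact p = 0.451, adjusted p = 0.580 over 9 tests on embryos). The higher mean at E18.5 rested on 2 embryos. It was 0.781 points above E8.5 without clone74_E3 and 0.839 points above without clone115_E8. With the median over CpGs as the level of an embryo, the difference was 0.818 points (exact permutation p = 0.864).

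At E8.5, 4 embryos reached levels above 13%, namely 6_E1 (13.4), 7_E6 (13.2), 8_E1 (16.9) and 8_E7 (16.1). The other E8.5 embryos were at 6.21 in 6_E2, 5.88 in 7_E7, 4.89 in 7_E8, 3.40 in 8_E5 and 2.54 in 7_E4. At E18.5, clone74_E3 (28.1) and clone115_E8 (27.7) stood highest, followed by clone74_E2 (16.02). The low E18.5 embryos were clone74_E4 (7.75), clone115_E1 (4.91), clone74_E8 (3.12) and clone74_E7 (0.151). The level of clone115_E1 included a value of 100 at 109540476, which no E8.5 library lists. In 7_E7, 1 CpG was at 100 and 16 were at 0. On the 19 CpGs compared one by one, the mean of clone115_E1 was 0.168. The stage difference on those CpGs was 2.09 points (exact permutation p = 0.658). High and low embryos were present in each clone and under the title numbers 6, 7 and 8. By title number the E8.5 means were 9.80 ± 5.09% for number 6 (SD, n = 2), 6.62 ± 4.59% for number 7 (n = 4) and 12.1 ± 7.58% for number 8 (n = 3). At E18.5 the mean was 11.03 ± 11.27% in clone74 (n = 5) and 16.3 ± 16.1% in clone115 (n = 2). With clone74 alone the difference between stages was 1.86 points.

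The title of an E8.5 library made no detectable difference to its level. The 6 libraries titled IG_DMR had a mean of 9.27 ± 6.00% and the 3 titled MEG3_DMR a mean of 8.96 ± 6.21% (two-sided exact permutation p = 0.964, from 84 splits). The interval of that difference, -9.77 to 9.90 points, is as wide as the levels themselves. With the median over CpGs as the level the difference was -4.88 points (exact permutation p = 0.405).

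**Figure D2:**
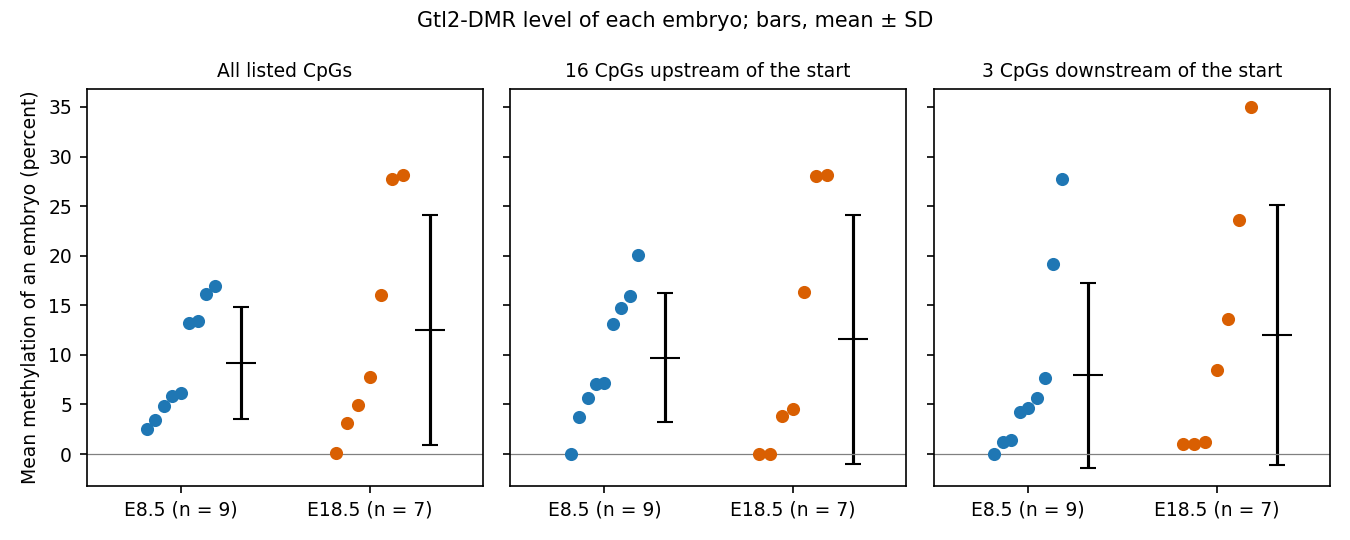
Mean methylation of each embryo in percent at E8.5 (blue, n = 9) and E18.5 (orange, n = 7), over all listed CpGs, the 16 compared CpGs upstream of the Meg3 start and the 3 downstream of it. The black bars are mean ± SD. The E18.5 points extend further in both directions in the first panel, from 0.151 to 28.1.

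The spread between embryos was wider at E18.5, but whether it passed a test depended on the statistic. The SD of the embryo level was 5.67 points at E8.5 and 11.6 at E18.5, a ratio of 2.05. The mean absolute deviation from the stage median was 4.76 points at E8.5 and 9.10 at E18.5, a difference of 4.33 that did not pass (exact two-sided permutation of the deviations, p = 0.189, adjusted p = 0.446). With the median over CpGs as the level, the stage median was 0 at both stages. The deviations then equalled the levels. Their difference of 0.818 points (exact permutation p = 0.864) therefore repeats the level test and does not measure spread. The SDs of those medians were 6.95 points at E8.5 and 10.5 at E18.5. With squared deviations of the mean level over CpGs from the stage mean, the exact permutation p was 0.00883. Relabelling the embryos and recomputing the ratio gave an exact permutation p of 0.0372 with levels centred on the stage mean and 0.0927 with levels as they were. The ratio was 1.81 without clone74_E3 and 1.83 without clone115_E8, with exact permutation p of 0.0777 and 0.0755 for the squared deviations. It was 1.41 for the 3 CpGs downstream of the start.

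The share of CpGs that carried any methylation varied widely between embryos. Over single values, 77 of 160 (48.1%) were at 0 at E8.5 and 88 of 141 (62.4%) at E18.5. Intermediate values, above 0 and below 100, made up 82 values (51.2%) at E8.5 and 47 (33.3%) at E18.5. A value of 100 was listed once at E8.5 (0.625%), in 7_E7, and 6 times at E18.5 (4.26%), in 4 embryos. Of these 6, 2 were at 109540476, which no E8.5 library lists. At positions listed at both stages there were 1 and 4 values of 100, the latter in 3 embryos. Values of at least 50 were 6 at E8.5 (3.75%), in 3 embryos, and 16 at E18.5 (11.3%), in 5 embryos. Among values above 0 the median was 15.8 at E8.5 and 25 at E18.5.

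Taken per embryo, the shares at 0, intermediate and at 100 did not pass a test between stages, and the share of at least 50 was not tested. The share of CpGs at 0 ran from 15% in 8_E1 over a median of 57.9% to 94.1% in 7_E7 at E8.5. At E18.5 it ran from 19.05% in clone74_E3 over a median of 72.2% to 88% in clone74_E7. The means were 50.6 ± 27.0% (SD, n = 9) and 61.8 ± 25.005% (SD, n = 7), a difference of 11.2 points (95% interval -17.4 to 39.5, exact permutation p = 0.398, adjusted p = 0.580). It was 1.81 points on the 7 CpGs listed in all libraries and 1.48 points when values up to 10% counted as 0 and those from 90% as 100. The intermediate share was 48.8 ± 28.2% at E8.5 and 33.9 ± 21.2% at E18.5, a difference of -14.9 points (95% interval -42.3 to 12.9, exact permutation p = 0.260, adjusted p = 0.468), which became -2.27 and -5.13 points in those settings. The share at 100 was 0.654 ± 1.96% and 4.31 ± 4.65%, a difference of 3.65 points (exact permutation p = 0.0769, adjusted p = 0.446). That difference had an unadjusted exact permutation p of 0.0256 without 7_E7 and of 0.0290 without clone74_E4, clone74_E7 or clone74_E8, each left out alone. It was 2.52 points without clone115_E8 (exact permutation p = 0.202), 2.53 points on the 19 CpGs compared one by one (exact permutation p = 0.218) and 0.454 points on the 7 CpGs listed in all libraries (exact permutation p = 1). With only the 3 E8.5 libraries titled MEG3_DMR, the difference in the share at 0 was -5.78 points, the opposite direction.

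**Figure D3:**
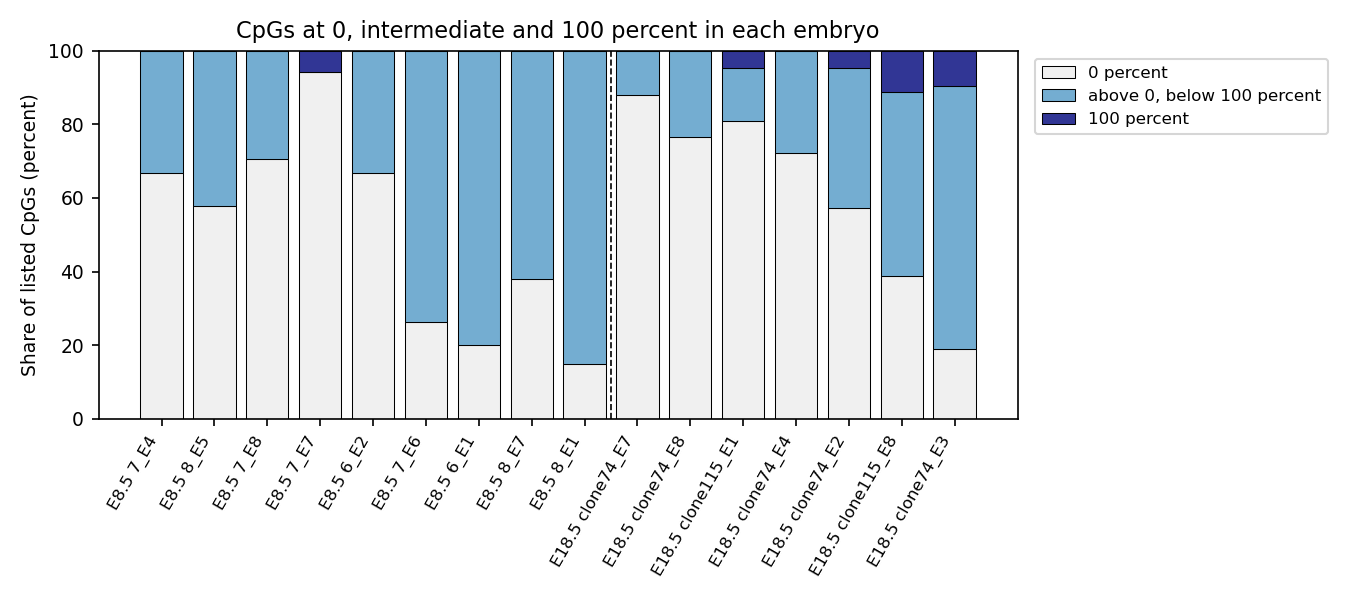
Share of listed CpGs, in percent of the CpGs of each embryo, at 0, intermediate and 100 percent methylation; embryos are ordered within a stage by mean level and the dashed line divides E8.5 (left) from E18.5 (right). Intermediate CpGs make up between 0 and 85% of an E8.5 embryo and between 12 and 71.4% of an E18.5 embryo.

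Methylated CpGs were also spread unevenly within an embryo. The SD over the CpGs of an embryo was 12.9 ± 6.23 points at E8.5 and 19.4 ± 11.3 at E18.5, a difference of 6.51 (exact permutation p = 0.161, adjusted p = 0.446). Without clone74_E7, whose SD over 25 CpGs was 0.433, the difference was 9.67 and its unadjusted exact permutation p was 0.0252. On the 7 CpGs listed in all 16 libraries the direction turned, with a difference of -1.91. In 8_E1 the methylation was broad, with 17 of 20 CpGs above 0 and no CpG above 31.8. In clone115_E8, by contrast, 7 of 18 CpGs were at 0 and 2 were at 100.

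Of the 19 CpGs compared one by one, 0 passed the exact permutation test after adjustment, that is 0% of the CpGs tested. The count was also 0 at an unadjusted p below 0.05 and in an exact rank permutation test, and at no CpG were the stages free of overlap. The lowest exact permutation p was 0.179, at 109540936 (adjusted p = 0.867). For a CpG listed in all 16 libraries the smallest possible p is 8.74e-05. The mean was higher at E18.5 for 12 CpGs and lower for 7, and the difference ranged from -9.66 to 19.8 points with a median of 1.64. The SD between embryos was larger at E18.5 at 13 of the 19 CpGs. The share of embryos with any methylation was larger at E8.5 for 11 CpGs and at E18.5 for 7. The stage means of the CpGs ran in parallel along the region (Pearson's r of 0.747 over 19 CpGs, as a description of CpGs that share their libraries).

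**Figure D4:**
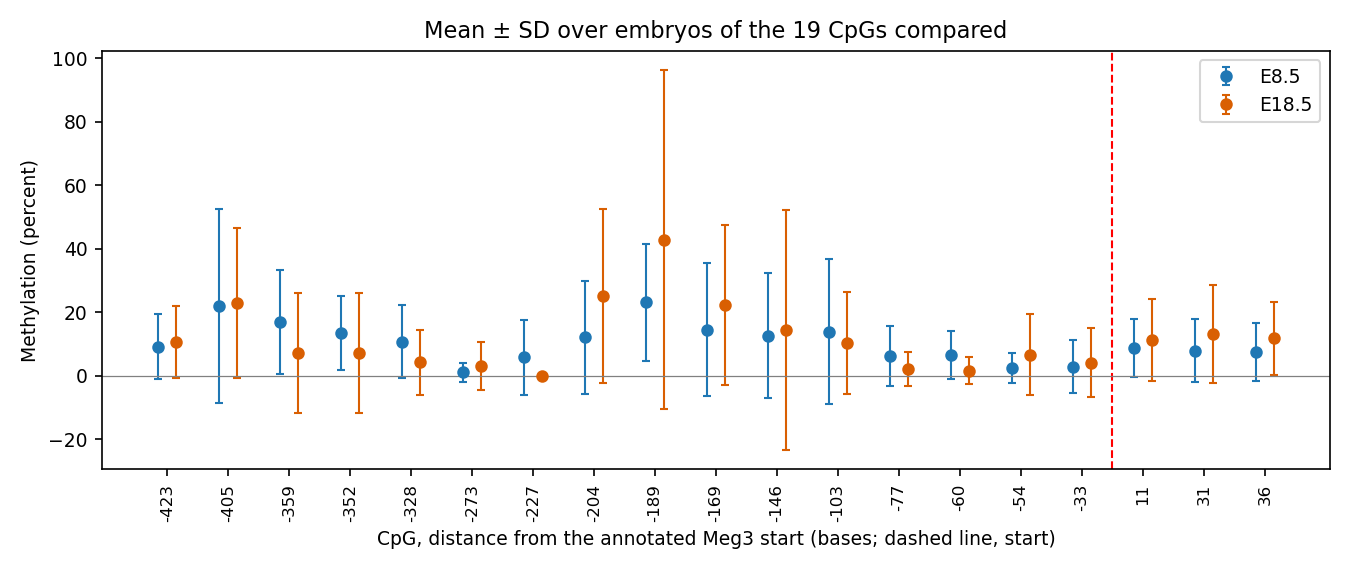
Mean ± SD over embryos, in percent, of the 19 CpGs compared, by distance in bases from the annotated Meg3 start, at E8.5 (blue) and E18.5 (orange). At both stages the highest mean of these CpGs is 189 bases upstream, and the bars of the stages overlap at every CpG with a nonzero SD at both. At 227 bases upstream all 6 E18.5 embryos that list the CpG are at 0.

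Among the 19 CpGs compared, the highest mean at both stages and the largest difference were at 1 CpG, at 109540807, 189 bases upstream in the promoter window. Its surroundings read ggggcactgCGgcagatttt, with the CpG in capitals. At E18.5 it was at 100 in clone115_E8, clone74_E2 and clone74_E3 and at 0 in the other 4 embryos. At E8.5, where 6 embryos listed it, it was at 50 in 8_E7, 40 in 7_E6, 20 in 7_E8, 14.3 in 6_E1, 14.3 in 8_E1 and 0 in 8_E5. The E18.5 values were thus all at either end of the scale, while 5 of the 6 E8.5 embryos lay between and 1 was at 0. The depth behind these values is unknown, and its part in this contrast was not tested. The means were 23.1 ± 18.48% (SD, n = 6) and 42.9 ± 53.5% (SD, n = 7), a difference of 19.8 points (exact permutation p = 0.395). Without any 1 of the 3 embryos at 100 the difference was 10.2 points.

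The neighbouring CpGs at 109540792 and 109540827, 204 and 169 bases upstream, gave the next largest increases in the mean. At 109540792, read as tggtcatggCGgccaggggc, the same 3 E18.5 embryos were at 50 and the other 3 that listed it were at 0. The highest E8.5 value there was again 50 in 8_E7, followed by 25 in 7_E6, 12.5 in 6_E1 and 9.09 in 8_E1, with 4 embryos at 0. The means were 12.1 ± 17.7% (SD, n = 8) and 25 ± 27.4% (SD, n = 6), and the difference of 12.9 points was 7.93 without any 1 of those 3 embryos. At 109540827, read as tttttccttCGttctttgct, clone74_E2 and clone74_E8 were at 50, clone74_E3 was at 33.3 and 3 E18.5 embryos were at 0. At E8.5 this CpG was at 50 in 8_E7, 40 in 6_E1 and 25 in 7_E6, and at 0 in 5 embryos. Its means were 14.4 ± 20.9% (SD, n = 8) and 22.2 ± 25.1% (SD, n = 6), and the difference of 7.85 points was 2.29 without clone74_E2 or clone74_E8.

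Embryo 8_E7 carried 50% at 4 successive compared CpGs from 204 to 146 bases upstream, with 0 at the next compared CpG on either side. The last of the 4, at 109540850, was at 100 in clone115_E8 and at 0 in the other 6 E18.5 embryos. At E8.5 it was also methylated in 6_E1 (42.9), 7_E6 (11.1) and 8_E1 (9.09), and at 0 in 5 embryos.

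The largest decreases in the mean lay further upstream, at 3 successive CpGs at 109540637, 109540644 and 109540668, which are 359, 352 and 328 bases upstream of the start and outside the promoter window. At E18.5 a single embryo, clone74_E3, was methylated there, at 50, 50 and 25, and every other E18.5 embryo that listed them was at 0. At E8.5 the CpG at 109540637 was above 0 in 5 of 8 embryos, from 12.5 in 8_E5 to 42.9 in 7_E8. The CpG at 109540644 was above 0 in 5 of 7 embryos, with a highest value of 28.6 in 7_E6, and that at 109540668 in 4 of 8 embryos, with a highest value of 25 in 8_E7. The E8.5 and E18.5 means were 16.8 ± 16.3 and 7.14 ± 18.9% for the first, 13.4 ± 11.6 and 7.14 ± 18.9% for the second, and 10.7 ± 11.6 and 4.17 ± 10.2% for the third. The differences of -9.66, -6.30 and -6.51 points gave exact permutation p of 0.308, 0.519 and 0.357. Without clone74_E3 the first became -16.8 and the second -13.4 points, with unadjusted exact permutation p of 0.0430 and 0.0210, of which neither passed after adjustment.

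The CpG at 109540591, 405 bases upstream, was above 0 in 7 of 9 embryos at E8.5 and in 4 of 7 at E18.5, and its mean differed least between stages. It ran from 0 in 7_E4 and 8_E5 over a median of 15.8 to 100 in 7_E7 at E8.5, and the next highest value was 22.2. At E18.5 it was at 50 in clone115_E8 and clone74_E2, 40 in clone74_E4, 20 in clone74_E3 and 0 in 3 embryos. The means were 21.9 ± 30.4% (SD, n = 9) and 22.9 ± 23.6% (SD, n = 7), a difference of 0.958 points that changed sign with the embryo left out. The CpG at 109540476, 520 bases upstream, was listed only at E18.5, at 100 in clone115_E1, 50 in clone74_E2 and 100 in clone74_E3. In clone115_E1 it was the only CpG upstream of the start with any methylation.

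The 3 CpGs downstream of the start, at 109541007, 109541027 and 109541032, took similar values within an embryo. They lie 11, 31 and 36 bases into the annotated transcript and were listed in all 16 libraries. In 14 embryos all 3 were above 0, in 7_E7 all were at 0, and in 7_E8 they were at 3.28, 0.398 and 0. The range over the 3 within an embryo had a median of 1.95 points and a highest value of 11.7, in clone115_E8. For comparison, the nearest 3 upstream CpGs, which span 27 bases against 25 downstream, were never all above 0 in the 15 embryos that listed them. They were methylated in part in 7 embryos, with ranges of up to 33.3 points in clone74_E3, and all were at 0 in the other 8, so that their median range was 0. Some other upstream neighbours also had close values at E18.5. The CpGs at 109540637 and 109540644 did not differ in any of 7 embryos, of which 6 were at 0 at both. Those at 109540919 and 109540936 differed by 0.454 points on average, with clone74_E3 alone above 0, at 14.3 and 11.1. At E8.5 the mean gaps of these pairs were 9.96 and 7.63 points, against 1.45 and 1.14 between successive downstream CpGs. At E18.5 the downstream mean gaps were 2.39 and 2.28 points, larger than those of both upstream pairs. As coverage is not given, its part in this contrast was not tested.

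The mean of the 3 downstream CpGs ran at E8.5 from 0 in 7_E7 over a median of 4.63 to 27.7 in 8_E1, with 6_E1 next at 19.2. At E18.5 it was 34.99 in clone115_E8, 23.6 in clone74_E4, 13.6 in clone74_E3 and 8.47 in clone74_E2, and it lay between 1.04 and 1.26 in clone74_E8, clone115_E1 and clone74_E7. The means were 7.96 ± 9.33% (SD, n = 9) and 12.01 ± 13.1% (SD, n = 7), a difference of 4.04 points (exact permutation p = 0.484). For the 16 upstream CpGs the means were 9.74 ± 6.55% and 11.6 ± 12.6%, a difference of 1.83 points (exact permutation p = 0.706). Each mean is over the CpGs of the set that the library lists.

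Both sides of the start did not rank the embryos alike. In clone74_E4 the upstream mean was 4.57% and the downstream mean 23.6%, and in 8_E1 they were 15.95% and 27.7%. The reverse held in clone74_E3 (28.1% upstream, 13.6% downstream), 8_E7 (20.1% and 5.66%) and 7_E6 (14.8% and 4.63%). In clone115_E1 and clone74_E7 each of the 16 upstream CpGs was at 0, while all 3 downstream CpGs were above 0. Those downstream values were low, from 0.234 to 2.51% in clone115_E1 and from 0.809 to 1.61% in clone74_E7. As depth is unknown, whether the upstream CpGs could have shown levels this low was not tested.

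**Figure D5:**
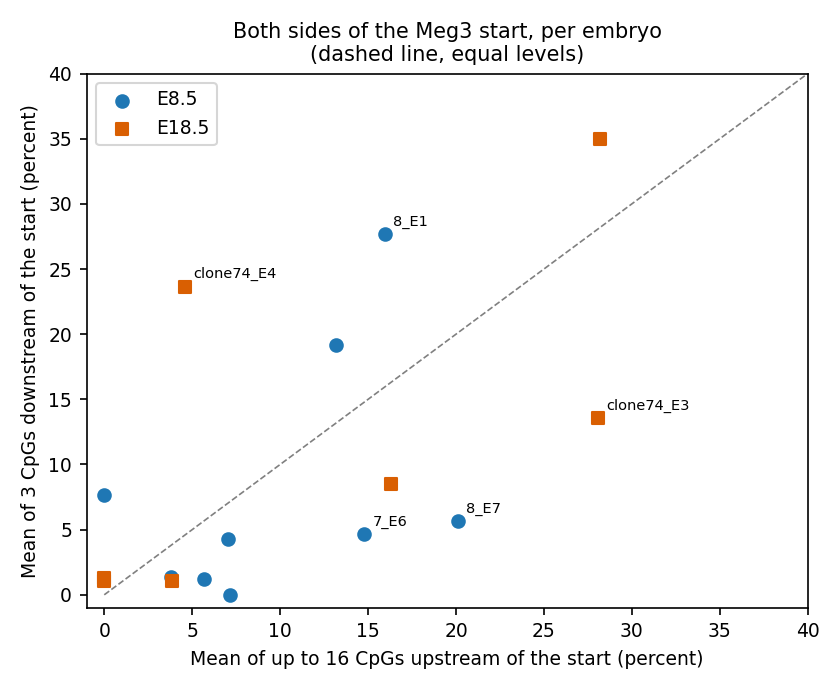
Mean percent methylation of the 3 CpGs downstream of the Meg3 start against that of up to 16 CpGs upstream, 1 point per embryo, E8.5 circles and E18.5 squares; the dashed line marks equal values. Named embryos differ by more than 9 points between the sides, and they lie on both sides of the line at each stage.

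The position of methylation did not differ detectably between stages. The mean over CpGs from 169 bases upstream onwards minus the mean over those before it was -2.48 ± 7.74 points at E8.5 and -5.18 ± 11.3 at E18.5, a difference of -2.70 (95% interval -12.9 to 7.46, exact permutation p = 0.576, adjusted p = 0.648). This value was 0.237 without clone74_E3, and its direction also turned when the region was split at the Meg3 start (0.660). The mean position weighted by percentage, counted from the start, was -212 ± 120 bases at E8.5 and -214 ± 160 bases at E18.5.

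WT and biallelic deletion (IG-CGIΔBi) libraries from E18.5 tails, titled MEG3_DMR, give a scale for these values, with no test made against them. In the 2 WT embryos the level was 26.4 and 26.8%, with 12.7 ± 4.43% of CpGs at 0 and 84.96 ± 1.06% intermediate. In the 5 IG-CGIΔBi embryos, with the deletion on both chromosomes, the level was 3.45 ± 4.37% (SD) with 80.8 ± 15.7% of CpGs at 0. The IG-CGIΔP mean was below both WT values at 14 of 19 CpGs at E8.5, and at the same 14 at E18.5. Over all listed CpGs, however, clone74_E3 (28.1%) and clone115_E8 (27.7%) were above both WT embryos, and the other 14 IG-CGIΔP embryos were below both. The level of clone74_E3 included a value of 100 at 109540476. On the 19 CpGs compared one by one its mean was 25.8%, and that of clone115_E8 was 29.4%. On the 16 upstream CpGs the means of these embryos were 28.1 and 28.2%, against 21.2 and 25.6% in WT. The exceptions among single CpGs were 109540591, 109540792, 109540807, 109540827 and 109540893. At 109540807 the WT mean was 8.33%, against 23.1 and 42.9% at E8.5 and E18.5 in IG-CGIΔP. At the CpG nearest upstream of the start, 109540963, the WT mean was 48.4%, against 2.78 and 4.08%. The 3 downstream CpGs were at 30.3 and 41.3% in WT. Of the 16 IG-CGIΔP embryos, clone115_E8 lay within that range and the others lay below it.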

How the data were processed

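DNA of single embryos was converted with bisulfite, tagged after conversion (PBAT), captured with an RNA probe library and sequenced. The authors deposited, per CpG, its position and the percentage of methylated calls, with no read counts, so coverage filters could not be set and depth is unknown. The submitters' processing notes name bcl2fastq 2.15.0.4, Bismark, Bowtie2 and the build mm10. Methods for calling methylation were not given further in the sources used here.

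All computation on the percent column used Python 3.11.15 (pandas 2.3.3, numpy 2.4.6), with matplotlib 3.10.9 for plots. The embryo was the unit. Stages were compared with exact two-sided permutation tests over all splits of the embryos (11440 where all 16 had a value, 1716 to 6435 for CpGs listed in fewer), adjusted (Benjamini-Hochberg) over 9 tests on embryos and, separately, over the 19 CpGs listed in at least 4 libraries of each stage, with a threshold of 0.05. Intervals collect the shifts that this test does not reject. The spread tests permuted deviations from the stage median or mean, which are only approximately exchangeable. On simulated percentages the CpG test called 189 of 200 CpGs raised by 60 points and 2 of 800 unchanged ones. The percentages were drawn from the 7 CpGs listed in all 16 libraries. The largest observed difference was 19.8 points, and the power for differences of that size was not simulated.

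Named CpGs were those passing adjustment, the 3 largest differences each way, the highest mean and largest SD at each stage, the smallest difference, and those at 50% or more in at least 2 embryos of a stage. Others (109540850, 109540963, 109540893, 109540919, 109540936, 109540942, 109541070, 109541075 and the 3 downstream of the start that were compared) were named after their values were seen, as was the division at the Meg3 start. The members and the comparisons were chosen with earlier results of these data known. Alternatives were other CpG sets, bounds of 5 and 95 or 10 and 90% in place of 0 and 100%, medians, ranks, titles, clones and leaving out each embryo. Of 17 listed positions in the promoter window, 4 are no CG in the RefSeq sequence. They hold 4 values, all 0, and were kept. Libraries of other genotypes, of P21 and of the IG-DMR were not used in the tests.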

Additional observations from a re-analysis of the deposited data

Results flagged for a closer look

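In 6 of the 32 groups of embryo values examined, 1 embryo lay apart from the rest by more than Dixon's criterion allows. Chance flags about 1 group in 20, a rate that does not hold where all other embryos are at 0, as in 4 of the 6, since any single value above 0 is then marked. At E8.5, 7_E7 had 5.88% of its CpGs at 100%, while no other embryo of that stage had any. This came from the CpG at 109540591, at 100% in 7_E7 against at most 22.2% in the other E8.5 embryos. Also at E8.5, 7_E4 listed 9 CpGs, where the next lowest embryos listed 17. At E18.5, clone74_E3 was at 50% at the CpG at 109540637, at 50% at 109540644 and at 25% at 109540668, where every other embryo that listed them was at 0.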

How the results depend on the processing

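The stage difference in level stayed above 0 under each of the 10 alternatives run beside leaving out embryos. Some differences turned sign. On the 7 CpGs listed in all libraries the SD over CpGs differed by -1.91 and the position by 1.73 points. With only the MEG3_DMR-titled E8.5 libraries the share at 0 differed by -5.78, the intermediate share by 3.43, the position by 3.91 and the CpG at 109540591 by -20.2 points. With the division at the Meg3 start the position differed by 0.660. The difference in the share at 100 ran from 0.454 (CpGs listed in all libraries) to 4.58 points (promoter CpGs), with permutation p from 0.0625 to 1.

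The SD ratio between stages was 2.05. Squared deviations from the stage mean, in place of the mean deviation, passed an unadjusted exact permutation test (p = 0.00883). The ratios below are given with that test, except where embryos were relabelled and the ratio itself was recomputed. Alternatives for the ratio were chosen after seeing the data. It was 2.05 with embryos relabelled (permutation p = 0.0927 without centring) and 1.41 on the 3 downstream CpGs. On the CpGs listed in all libraries it was 2.19, and with MEG3_DMR-titled libraries 1.87. These 4 did not pass an unadjusted threshold. Squared deviations passed at ratios of 1.80 on the 13 promoter CpGs (permutation p = 0.0212) and 1.97 on the 19 compared CpGs (p = 0.0125, permutation). They also passed at 1.92 on the 16 upstream CpGs (permutation p = 0.0146) and 1.99 in clone74 alone (permutation p = 0.0395). The ratio itself passed with embryos relabelled after centring (permutation p = 0.0372). Leaving out each embryo gave ratios from 1.81 to 2.23, and 14 of 16 passed the test on squared deviations.

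Leaving out each embryo gave differences from 0.781 to 5.44 in level, 6.77 to 18.4 in the share at 0, -21.1 to -10.3 in the intermediate share, 2.52 to 4.37 in the share at 100, 2.46 to 5.85 in the mean deviation, 4.41 to 9.67 in the SD over CpGs, -4.67 to 0.237 in position, 1.27 to 2.89 in CpGs listed -3.89 to 1.72 between titles and -3.57 to 10.7 at the CpG at 109540591, all in points or CpGs. The mean deviation had an unadjusted exact permutation p of 0.0482 without clone115_E1 and of 0.0352 without clone74_E4. The number of CpGs passing stayed at 0. No paired analysis was possible because the embryo numbers shared by the stages name different animals. Coverage is not given, so how far depth limits single percentages is unknown.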

Other observations

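The positions listed by too few libraries for a test were nearly all unmethylated. Beside 109540476, the other 10 such positions were at 0 in every library that listed them. They include 109541070 and 109541075, which are 74 and 79 bases downstream of the Meg3 start and were listed by clone74_E7 alone.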
